A study of Mus musculus with 61 samples.

Results

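The comparison described here set splenic T cells of mice that carry the STAT5B Y665H substitution against splenic T cells of wild-type (WT) mice, after 24 h in culture with interleukin 2 (IL-2) and interleukin 7 (IL-7). Its members were the libraries titled for stimulated T cells of these 2 genotypes, with 4 titles for Y665H and 4 for WT, or 8 of the 61 samples of the series. The series as a whole holds RNA libraries of whole spleen, of purified splenic T cells, and of CD4 T cells with or without their own Stat5a and Stat5b into which several forms of STAT5B were introduced. All animals of the 2 genotypes compared are labelled C57BL/6 at 2 months. They carried either the edited Stat5b allele, made in C57BL/6N eggs, or none, and the labels name the allele without its zygosity. T cells were purified from total splenocytes by negative selection with a T-cell isolation kit, without separating CD4+ from CD8+ cells, and no culture of either genotype without cytokine was among these libraries. Each group therefore shared the cytokine treatment, and a difference between genotypes is one under stimulation. RNA was sequenced after removal of ribosomal RNA with a stranded kit, and reads were counted per gene. A further genotype, Y665F, was also used, from mice of 2 months made with Cas9 and a donor oligonucleotide in C57BL/6N zygotes. Its 4 stimulated and 3 unstimulated T cell libraries entered the fit, and levels of the stimulated ones are set beside the comparison.

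STAT5B is a latent transcription factor that is phosphorylated by Janus kinases when a cytokine binds its receptor, pairs through its SH2 domain and binds DNA at the GAS motif. In T cells IL-2 and IL-7 both signal through the common gamma chain (Il2rg) to STAT5A and STAT5B, which raise feedback inhibitors of the pathway, the IL-2 receptor chains, survival proteins and effector molecules. IL-2 signaling is also needed by regulatory T cells, and IL-7 sustains resting T cells and lowers transcription of its own receptor.

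The Y665H allele was made by adenine base editing in fertilized eggs, in which a guide RNA places a deaminase over its target and an A on the edited strand is read as G. The guide, printed 5′ to 3′ with its PAM as the last 3 bases and the edited base in capitals, matched 1 site in the Stat5b transcript, on the strand opposite to the coding one. The coding strand is printed below it, with the base paired to the edited one in capitals.
Y665H guide: tgaggtAattcaggtcccccagg
Stat5b coding strand: cctgggggacctgaatTacctca
Counted from 1 at the 5′ end of the guide, the change A7G turns the tyrosine codon TAC of the residue named in Y665H into the histidine codon CAC. The protein has 786 residues. The edited base lies at 100787293 of chromosome 11 (GRCm38), in exon 16 of 19 of the Stat5b transcript on the minus strand, an exon that runs from 100787209 to 100787379. Of the other A bases under the guide, A8G would be silent at residue 664, whereas A3G and A12G would each put proline in place of leucine, at residues 666 and 663. The count files hold no bases, so the edit itself could not be read from them.

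Before any comparison, the libraries were checked against each other. The library titled Y665H replicate 4 held, for each of 24421 genes and for each of 5 categories of reads without a gene, exactly the sum of the counts of Y665H replicates 1 and 2. Of 3660 ordered pairs of libraries in the series, only these 2 showed one library contained in another. Y665H replicate 4 therefore held no reads of its own, and the group was taken as 3 libraries against 4 of WT. The levels and tests below leave it out, and the result with it is given beside the overall count.

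Depth differed between the genotypes. The WT libraries held 13695161 to 27394249 reads on genes, and Y665H replicates 1, 2 and 3 held 3310342, 2017012 and 15896125. A level of 1 CPM (CPM are the counts of a gene scaled to a common library size) was thus worth 3.31 and 2.02 reads in Y665H replicates 1 and 2, so that genes below a few CPM rest on single reads there. The share of counted reads that fell on no gene was 69.9% ± 1.74 (SD, n = 3) in Y665H and 67.0% ± 3.83 (SD, n = 4) in WT, a difference that did not exceed the spread by an exact two-sided permutation test (p = 0.343, smallest possible 0.0571). Levels below are CPM on library sizes scaled by the trimmed mean of M values (TMM).

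The T cell label held in every library, while the cells that accompany T cells differed between libraries within the Y665H group. Cd3e, the signaling chain of the T cell receptor complex, lay between 134 and 148 CPM in WT and between 128 and 141 in Y665H, and Cd4 and Cd8a were both present throughout. The genes of the T cell receptor complex and coreceptors summed to 6221 to 7905 CPM in WT and to 5784 to 6197 CPM in Y665H, so each Y665H library lay slightly below each WT library. The 21 macrophage and monocyte markers summed to 543 to 568 CPM in the 4 WT libraries, but to 249 in Y665H replicate 1 and to 857 and 933 in replicates 2 and 3. Lyz2, the lysozyme of myeloid cells, followed the same pattern with 97.9 to 112 CPM in WT and 4.46, 252 and 274 CPM in Y665H. The 16 neutrophil markers summed to 16.7 to 25.8 CPM in WT and 32.9, 79.0 and 111 CPM in Y665H, with no overlap. Elane, a granule protease in this list, had at most 0.0822 CPM in these 7 libraries and no read in Y665H. Natural killer cell markers summed to 593 CPM in WT replicate 1, to 224 to 264 CPM in the other WT libraries and to 107 to 232 CPM in Y665H. Over genes that averaged 5 CPM or more, Y665H replicates 2 and 3 were closest to each other and to WT replicate 1 (Spearman correlations 0.985, 0.977 and 0.986 across genes), whereas Y665H replicate 1 was closest to WT replicate 3 (0.954) and had 0.918 with Y665H replicate 2. These correlations describe pairs of libraries, since genes are not independent replicates. How far the makeup of a library moved the genes below was not tested, and in such mixed samples fewer cells of a type and less RNA per cell cannot be told apart.

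**Figure D1:**
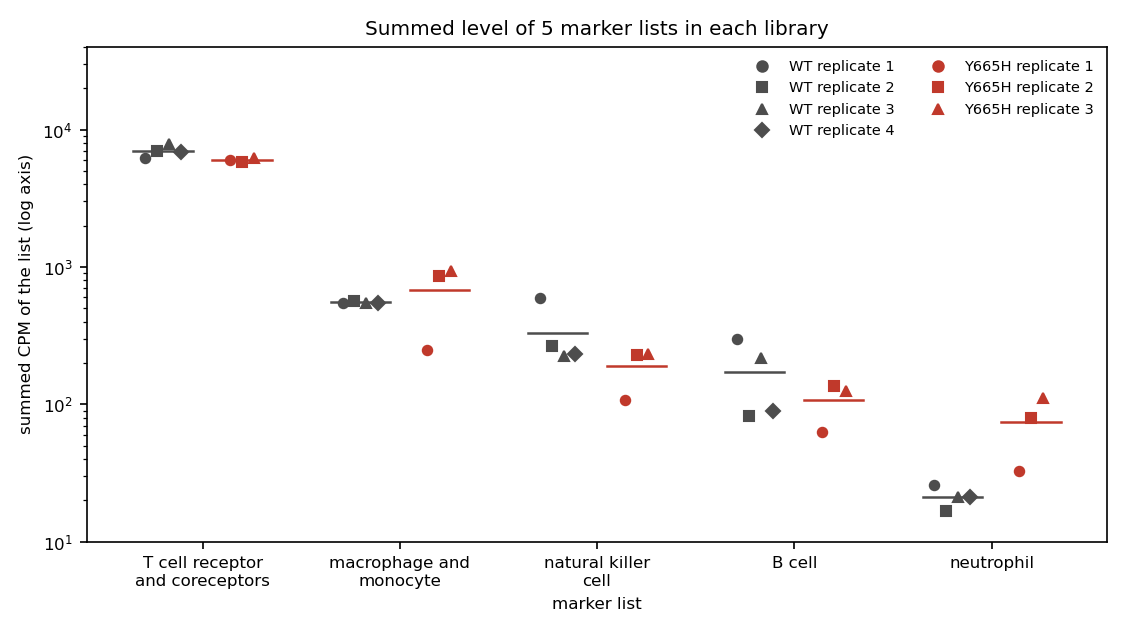
Summed CPM (log axis) of 5 marker lists in each stimulated T cell library, with WT in gray, Y665H in red, symbols for replicates and a line at each group mean. T cell genes sat at 6221 to 7905 CPM in WT and 5784 to 6197 CPM in Y665H, macrophage and monocyte markers were split within Y665H (249 against 857 and 933 CPM), and neutrophil markers were higher in each Y665H library than in any WT library.

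Across all genes, stimulated Y665H T cells showed lower levels of granzyme B, IL-2 receptor chains and cytokine genes and higher levels of Itgae, Kcnip2 and the IL-7 receptor, but no single gene passed the threshold for a change in the edgeR quasi-likelihood test (adjusted p under 0.05 and log2 fold change beyond 1). Of 22295 genes tested, 0 (0.0%) were called. The lowest adjusted p, 0.0581, was shared by 5 genes, namely Gzmb, Ecm1, Kcnip2, Itgae and S100a8. At an unadjusted p under 0.05, 340 genes (1.53%) were higher and 733 (3.29%) were lower in Y665H, 1073 in all. These shares are the background for each list below. Among the 9611 genes that averaged 5 CPM or more they were 1.01% higher and 4.53% lower. The median log2 fold change of all genes was −0.12, and scaling by relative log expression size factors in place of TMM moved this median by 0.11 to −0.01 and turned the split into 477 higher and 532 lower. By DESeq2 on the same libraries, 12 genes (0.0538%) were called higher and 16 (0.0718%) lower, and limma voom called 0 with 1065 at an unadjusted p under 0.05. With Y665H replicate 4 kept as deposited, edgeR called 6 genes higher (0.0269%) and 10 lower (0.0448%), from a design that counts the reads of replicates 1 and 2 more than once. Without regard to any test, 274 genes (1.23%) had each Y665H library above each WT library, and 1103 (4.95%) had each Y665H library below. Among genes that averaged 5 CPM or more, these shares were 0.947% above and 5.68% below.

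Stat5b itself did not separate the genotypes. Its CPM was 155, 163, 213 and 126 in WT and 197, 139 and 158 in Y665H, so the groups overlapped. The log2 fold change was 0.01 ± 0.24 (SE), and its sign depended on the setting. Stat5a, the paralog, lay between 35.9 and 73.3 CPM in WT and between 27.5 and 54.1 CPM in Y665H (log2 fold change −0.28 ± 0.26). The 2 genes are similar in sequence, and how reads shared between them were counted is not given in the sources used here. The JAK-STAT pathway list holds kinases and STATs and also other members such as the phosphatase gene Ptprc. Its 17 tested members had a median log2 fold change of −0.10, close to that of all genes and 0.03 under relative log expression. Of these, 1 was lower and 0 were higher at an unadjusted p under 0.05. Jak1, the kinase bound to the IL-2 and IL-7 receptors, measured 1526 to 1687 CPM in WT and 1682 to 1829 CPM in Y665H.

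A list of feedback genes and core targets of STAT5 lay lower in Y665H as a group. The list also holds Bcl6, and whether STAT5 raises or lowers each member was not established here. Of 49 genes listed, 48 were tested, 42 had a log2 fold change below 0 and the median was −0.67, against −0.12 for all genes. The list was chosen with earlier results of these data known. It includes Ecm1, 1 of the 5 genes at the lowest adjusted p, so its counts describe these libraries and are not independent evidence. At an unadjusted p under 0.05, 22 of the 48 (45.8%) were lower and 0 were higher, against 3.29% and 1.53% of all genes. In 16 of the 48 (33.3%) each Y665H library lay below each WT library, against 4.95% of all genes. Scaling by relative log expression left 16 of 48 lower and 0 higher, with a median of −0.54. Leaving out each library in turn gave 14 to 26 lower members, the lowest without Y665H replicate 2, and 16 without Y665H replicate 1, the library of few myeloid transcripts. Taken library by library, the median of these genes on the log2(CPM + 1) scale, relative to the WT mean, was −0.39 to 0.35 in WT and −0.74, −0.55 and −0.45 in Y665H, so the groups did not overlap. Lists of other kinds also lay lower, and the median was −0.51 over 16 RNA quality and library composition genes (13 below 0, 2 lower and 1 higher at an unadjusted p under 0.05) and −0.61 over 20 B cell markers (19 below 0, 1 lower). Their part in the lower level of the STAT5 targets was not tested.

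The promoters of some of these genes hold the sequence to which STAT5 binds. The GAS motif was searched as TTCNNNGAA, which reads the same on both strands, in RefSeq windows from 250 bases before to 50 after each transcript start (GRCm38.p6), and 2726 of 32851 windows (8.3%) held it. Only 38 of the 48 tested STAT5 target genes had a window, under 80% of the list, so a share over the list is void and none is drawn from it. The stretches below are all the matches in STAT5 target genes whose levels are described next, whether or not the genotypes overlapped. They are printed on the strand of the gene with the motif in capitals.
Cish, first motif: gcccagttTTCCTGGAAagttcttg
Cish, second motif: ctggaaagTTCTTGGAAatctgtca
Lta, first motif: catcactcTTCAGGGAAccaggctt
Lta, second motif: gactccctTTCCCAGAAcgcagtag
Irf8, first motif: aaagtgatTTCTCGGAAagagagcg
Irf8, second motif: gagagcgcTTCAGAGAAggcggatt
Tnfrsf9: acagctgaTTCCAAGAAacccttca
Gzmb: caggagttTTCATAGAAagca
Il18r1, first motif: ggggttagTTCTGGGAActgtggag
Il18r1, second motif: tacaggtcTTCCCAGAActgaaagc
Il12rb2: tcccttttTTCTCAGAAccgcacta
The Cish stretches lie at chr9:107296651-107296675 and chr9:107296662-107296686 on the plus strand, overlap, and are centered 4 and 15 bases after the start. The Lta stretches at chr17:35205487-35205511 and chr17:35205351-35205375 on the minus strand are centered 148 and 12 bases before the start. The Irf8 stretches at chr8:120736179-120736203 and chr8:120736197-120736221 on the plus strand are centered 167 and 149 bases before it, and the Tnfrsf9 stretch at chr4:150927855-150927879 on the plus strand 132 bases before it. The Gzmb stretch at chr14:56262285-56262305 on the minus strand is centered 41 bases after the RefSeq start, which lies upstream of the GENCODE gene given below. The Il18r1 stretches lie at chr1:40465779-40465803 and chr1:40465846-40465870 on the plus strand, 215 and 148 bases before the start, and the Il12rb2 stretch at chr6:67376295-67376319 on the minus strand, 119 bases before it. Windows of Il7r and Tnfrsf1b, which are outside the STAT5 target list and were higher in Y665H, also held the motif. The printed stretches therefore do not tie the motif to a lower level. A match describes these letters only, and binding was not measured in the counts.

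Feedback inhibitors of cytokine signaling differed unequally. Cish, an SH2 protein that damps IL-2 signaling, measured 14.6, 27.3, 42.9 and 13.1 CPM in WT and 13.7, 3.37 and 9.85 CPM in Y665H. Its log2 fold change was −1.40 ± 0.48 (adjusted p = 0.872), and Y665H replicate 1 reached the level of the 2 lower WT libraries. Socs2, another such inhibitor, measured 38.6, 44.7, 34.0 and 29.9 CPM in WT and 7.81, 16.9 and 28.5 CPM in Y665H (−1.01 ± 0.35, adjusted p = 0.916), with each Y665H library below each WT library by a narrow margin in replicate 3. Socs1 did not separate the genotypes, at 9.78 to 23.3 CPM in WT and 6.26 to 18.4 CPM in Y665H (−0.42 ± 0.37).

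The alpha and beta chains of the IL-2 receptor were lower in each Y665H library. Il2ra, the alpha chain and a STAT5 target, measured 155, 124, 89.7 and 109 CPM in WT and 20.6, 63.6 and 66.7 CPM in Y665H, a log2 fold change of −1.24 ± 0.36 (adjusted p = 0.586). Il2rb, the beta chain, measured 218, 298, 457 and 218 CPM in WT and 144, 134 and 122.7 CPM in Y665H (−1.16 ± 0.31, adjusted p = 0.574). The groups did not overlap for either gene. Il2ra lies on chromosome 2 from 11642807 to 11693193 and Il2rb on chromosome 15 from 78479256 to 78495271 (GRCm38, GENCODE M21). Il2rg, the common gamma chain shared with the IL-7 receptor, differed less, at 431 to 546 CPM in WT and 340 to 447 CPM in Y665H (−0.29 ± 0.23).

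The IL-7 receptor went the other way. Il7r, the alpha chain, encoded on chromosome 15 from 9505788 to 9530176, measured 927, 786, 707 and 1008 CPM in WT and 1045, 1401 and 1514 CPM in Y665H, so the groups did not overlap, although Y665H replicate 1 was close to WT replicate 4. Its log2 fold change was 0.62 ± 0.26 with an unadjusted p of 0.0262 and an adjusted p of 0.943 by edgeR. Among all 29 cytokine receptor genes tested, 7 were lower and 1 was higher at an unadjusted p under 0.05 (24.1% and 3.45%, against 3.29% and 1.53% of all genes). Their median log2 fold change was −0.22. Ifngr1, the ligand-binding chain of the interferon gamma receptor, was among the lower ones, at 892 to 1385 CPM in WT and 424 to 701 CPM in Y665H (−0.91 ± 0.28, adjusted p = 0.755). Il4ra, the IL-4 receptor chain, overlapped, at 381 to 944 CPM in WT and 310 to 475 CPM in Y665H (−0.70 ± 0.33). Il15ra, which presents IL-15, had 8.12 to 13.1 CPM in WT and 4.18 to 9.24 CPM in Y665H (−0.65 ± 0.33). Il18r1 and Il12rb2, receptors of the cytokines IL-18 and IL-12, overlapped between genotypes with log2 fold changes of −0.22 ± 0.24 and −0.48 ± 0.34.

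Some cytokines made by T cells were lower in each Y665H library, without passing the threshold. Lta, lymphotoxin alpha, measured 33.0, 47.0, 55.0 and 32.0 CPM in WT and 21.7, 12.0 and 21.2 CPM in Y665H (−1.16 ± 0.30, adjusted p = 0.479, and 0.0309 by DESeq2). Osm, which encodes oncostatin M, measured 25.8, 52.7, 82.0 and 21.7 CPM in WT and 19.5, 13.5 and 13.4 CPM in Y665H (−1.56 ± 0.39, adjusted p = 0.388). For both genes the highest Y665H library lay below the lowest WT library, and for Osm the WT libraries themselves spread widely. Tnf was at 35.5 to 119 CPM in WT and 27.9 to 32.3 CPM in Y665H (−1.27 ± 0.37, adjusted p = 0.594). Lif rested on 1, 2 and 5 reads in the Y665H libraries and on 14 to 73 in WT, too few for a firm statement. The 26 genes for helper cytokines and lineage factors had a median of −0.31, with 18 below 0. At an unadjusted p under 0.05, 8 were lower (30.8%, against 3.29% of all genes) and 0 higher. Without Y665H replicate 1 or without replicate 3, 4 were lower.

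Transcription factors of cytokine responses were mixed. Irf1 measured 289, 688, 1037 and 239 CPM in WT and 253, 249 and 268 CPM in Y665H, a log2 fold change of −1.13 ± 0.36 that rested on WT replicates 2 and 3, since WT replicates 1 and 4 were at the Y665H level. Irf8 measured 23.6, 12.2, 17.4 and 9.05 CPM in WT and 3.07, 2.89 and 9.37 CPM in Y665H (−1.44 ± 0.43, adjusted p = 0.682), with Y665H replicate 3 at the lowest WT level.

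Survival and proliferation targets mostly differed by less than the leading genes. Bcl2, the anti-apoptotic protein sustained by IL-7, measured 1846 to 2517 CPM in WT and 1833 to 2193 CPM in Y665H (−0.11 ± 0.30, and 0.01 under relative log expression). Ccnd2, a cyclin of the early cell cycle, overlapped as well (−0.19 ± 0.24). Mcl1 and the kinase Pim1 had each Y665H library below each WT library, but by small amounts, with log2 fold changes of −0.47 ± 0.25 and −0.55 ± 0.26. Bcl2l1, which encodes Bcl-xL and is named here after its values were seen, measured 11.8 to 23.6 CPM in WT and 5.78 to 9.20 CPM in Y665H (−1.10 ± 0.32, adjusted p = 0.637).

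**Figure D2:**
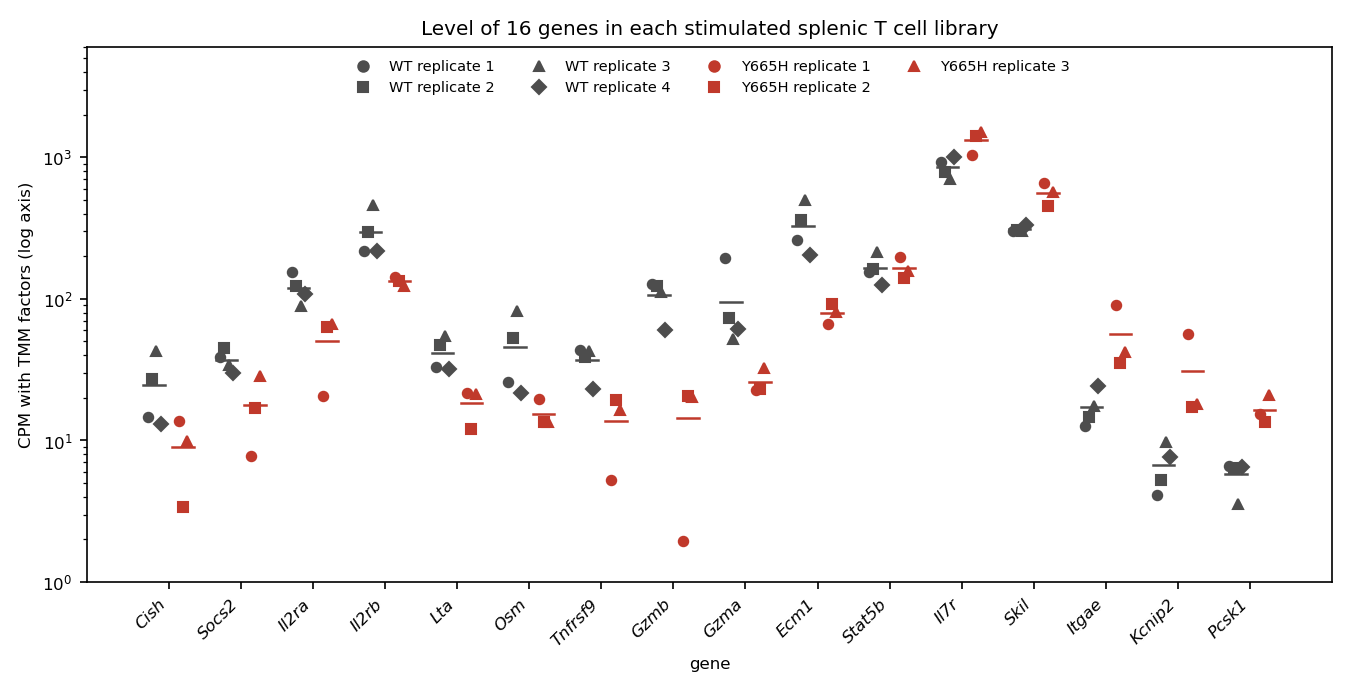
CPM with TMM factors (log axis) of 16 genes in each stimulated T cell library, with WT in gray, Y665H in red, symbols for replicates and a line at each group mean. The STAT5 targets on the left sat lower in Y665H with Gzmb furthest apart, Stat5b overlapped, and Il7r, Skil, Itgae, Kcnip2 and Pcsk1 on the right had each Y665H library above each WT library.

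Granzymes, the proteases by which cytotoxic cells kill, were among the genes furthest apart. Gzmb measured 127, 124, 112 and 60.0 CPM in WT and 1.95, 20.7 and 20.3 CPM in Y665H, from 7, 43 and 297 reads. The gene lies on the minus strand of chromosome 14 from 56258838 to 56262260. The log2 fold change was −2.87 ± 0.49, or 7.31-fold lower, with an adjusted p of 0.0581 by edgeR and 0.0103 by DESeq2. The lowest WT library stood far above the highest Y665H library, and Y665H replicate 1 stood far below the other Y665H libraries. Gzma measured 193, 73.4, 52.1 and 60.8 CPM in WT and 22.6, 23.1 and 32.4 CPM in Y665H (−1.84 ± 0.36, adjusted p = 0.0886, and 0.00399 by DESeq2), again without overlap. Gzma is also among the natural killer cell markers, whose sum was highest in WT replicate 1 and lowest in Y665H replicate 1.

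The 38 genes of cytotoxic and effector-memory CD8 T cells had a median log2 fold change of −0.53, with 13 lower and 2 higher at an unadjusted p under 0.05 (34.2% and 5.26%, against 3.29% and 1.53% of all genes) and 14 with each Y665H library below WT (background 4.95%). Without Y665H replicate 1, 4 were lower and 3 higher, and without the other libraries one at a time 9 to 19 were lower. Cd8a, the CD8 coreceptor, measured 549, 625, 673 and 574 CPM in WT and 496, 393 and 480 CPM in Y665H (−0.41 ± 0.24), while its partner Cd8b1 overlapped (−0.41 ± 0.36). Itga4, an integrin of effector and memory cells, was at 713 to 1547 CPM in WT and 1146 to 1505 CPM in Y665H (0.32 ± 0.26). Of 14 natural killer cell markers, 7 were lower at an unadjusted p under 0.05 and the median was −0.96. Klrb1c, the NK1.1 receptor, measured 56.2, 21.5, 14.97 and 9.58 CPM in WT and 3.07, 8.67 and 11.01 CPM in Y665H. Without WT replicate 1, 3 of these markers were lower.

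Genes of regulatory T cells split by gene. Of 25 tested, 9 were lower and 2 higher at an unadjusted p under 0.05 (against 3.29% and 1.53% of all genes), with a median of −0.53. Foxp3, their lineage factor, named here after its values were seen, overlapped, at 17.4 to 23.9 CPM in WT and 13.9 to 25.1 CPM in Y665H (−0.08 ± 0.31, and 0.04 under relative log expression). Lrrc32, which encodes the GARP receptor that carries latent TGF-beta, measured 12.1, 21.1, 33.1 and 12.9 CPM in WT and 3.35, 4.82 and 8.005 CPM in Y665H (−1.80 ± 0.42, adjusted p = 0.263). Gpr83 measured 25.0 to 32.3 CPM in WT and 8.64 to 14.1 CPM in Y665H (−1.35 ± 0.33, adjusted p = 0.388). These 2 were also chosen after their values were seen, and DESeq2 gave them adjusted p of 0.0172 and 0.0219. Tnfrsf9, the costimulatory receptor 4-1BB and likewise chosen so, measured 23.0 to 43.7 CPM in WT and 5.30 to 19.3 CPM in Y665H (−1.45 ± 0.40, adjusted p = 0.574). Ikzf2, the factor Helios, measured 91.3 to 170 CPM in WT and 21.2, 80.5 and 121 CPM in Y665H, with an overlap set by Y665H replicate 3.

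Itgae, the integrin CD103 that binds E-cadherin on epithelium, was 1 of the 2 regulatory T cell genes that were higher. The gene, on chromosome 11 from 73090583 to 73147446, measured 12.6, 14.5, 17.5 and 24.4 CPM in WT and 91.2, 35.2 and 42.4 CPM in Y665H. The log2 fold change was 1.70 ± 0.31, or 3.26-fold, with an adjusted p of 0.0581 by edgeR and 3.89e-05 by DESeq2. Each Y665H library lay above each WT library, and replicate 1 was the highest. Tnfrsf1b, a TNF receptor of regulatory T cells and the other of them, also separated the groups, at 57.1 to 80.3 CPM in WT and 90.3 to 101 CPM in Y665H (0.53 ± 0.25).

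Genes of growth and division leaned lower, with single genes short of the threshold and beside the RNA quality and library composition genes at a median of −0.51. The 15 replication-dependent histone genes had a median of −0.91, with 4 lower, and 1 lower without WT replicate 3. Of 36 genes for ribosome biogenesis and amino acid uptake linked to MYC, 12 were lower and 1 higher at an unadjusted p under 0.05. These were 33.3% and 2.78%, against 3.29% and 1.53% of all genes. The median was −0.50, and without Y665H replicate 2 the lower count was 5. Odc1, the first enzyme of polyamine synthesis, measured 87.0, 247, 243 and 91.1 CPM in WT and 41.5, 62.1 and 68.0 CPM in Y665H (−1.54 ± 0.32, adjusted p = 0.152, and 0.00984 by DESeq2). Npm1 and Ncl, nucleolar proteins, had log2 fold changes of −0.54 ± 0.30 and −0.52 ± 0.25, and Eif5a of −0.70 ± 0.29. Of 48 genes of the cell cycle and DNA replication, 14 were lower (29.2%, against 3.29% of all genes) and 0 higher. Their median was −0.55, and 10 to 17 were lower when single libraries were left out. Uhrf1, which is outside that list and maintains DNA methylation, measured 16.1 to 32.7 CPM in WT and 6.69 to 12.5 CPM in Y665H (−1.29 ± 0.33, adjusted p = 0.405). Mcm6, a subunit of the replicative helicase, and Tubb5, a tubulin, differed less (−0.37 ± 0.23 and −0.43 ± 0.35).

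Stress and metabolic lists followed with smaller differences. Of 26 genes of the amino acid stress and unfolded protein responses, 10 were lower (38.5%, against 3.29% of all genes) and 0 higher. Their median was −0.44, and without Y665H replicate 1 the lower count was 5. Hspa5, the chaperone BiP, was at 426 to 865 CPM in WT and 236 to 451 CPM in Y665H (−0.79 ± 0.27). The 27 glycolysis and hypoxia-response genes had a median of −0.39 with 5 lower. That count was 8 without WT replicate 1, 3 without WT replicate 3, and 2 without WT replicate 2, without Y665H replicate 2 or under relative log expression. Ldha, lactate dehydrogenase, measured 241 to 333 CPM in WT and 191 to 228 CPM in Y665H (−0.43 ± 0.24). Of 29 immediate-early and stress genes, 8 were lower (27.6%, against 3.29% of all genes) and 0 higher. Their median was −0.38, and 5 were lower without WT replicate 3.

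Several lists held few lower or higher genes, though some moved with single libraries. The 26 genes of naive and quiescent T cells had a median of 0.00 (0.12 under relative log expression), with 2 higher and 1 lower. The 25 chemokine receptor and homing genes had a median of −0.04 (0.09 under relative log expression), with 2 higher and 1 lower. Interferon-induced genes (33 tested, median −0.20, 2 lower) and guanylate-binding proteins and related GTPases (20 tested, median −0.31, 1 lower) differed within Y665H more than between genotypes. On the log2(CPM + 1) scale relative to the WT mean, the median of the GTPase list was −1.06 in Y665H replicate 1, −0.04 and 0.07 in replicates 2 and 3, and between −0.43 and 0.52 in WT. The 22 genes of the T cell receptor complex and coreceptors had a median of −0.28 with 1 lower, 2 lower without WT replicate 2 or Y665H replicate 1, and 5 without WT replicate 1. Of 32 survival and death genes 3 were lower (median −0.19), and 6, 5 and 7 were lower without WT replicate 4, Y665H replicate 1 and Y665H replicate 3. Of 30 cholesterol and fatty acid genes 1 was lower (−0.16). Checkpoint and costimulatory receptors stood further from all genes, with 3 of 18 lower (16.7% against 3.29%), 1 higher and a median of −0.31.

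**Figure D3:**
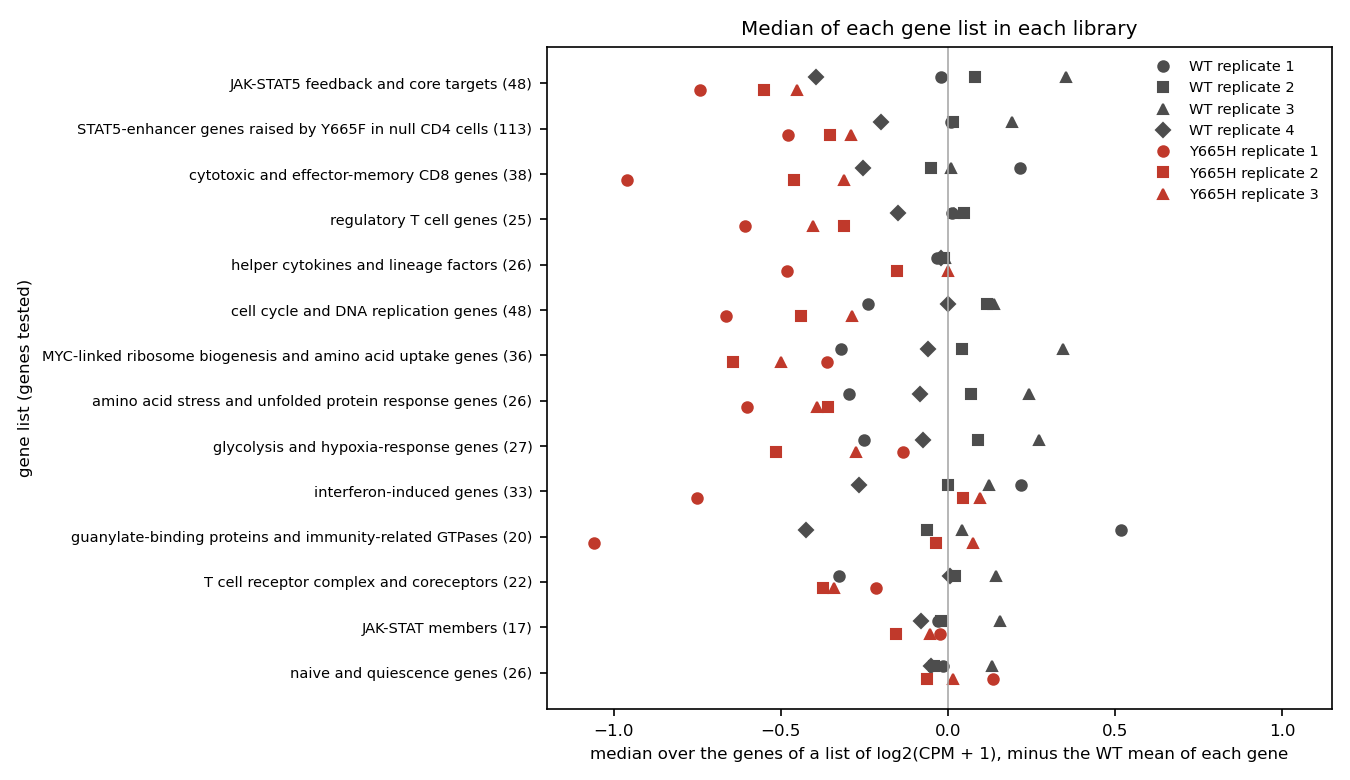
Median over each of 14 gene lists of log2(CPM + 1), minus the mean of each gene in WT, for each library (WT in gray, Y665H in red, symbols for replicates). For the STAT5 target genes the 3 Y665H libraries lay at −0.74 to −0.45 and did not overlap WT at −0.39 to 0.35, whereas for the interferon and GTPase lists Y665H replicate 1 stood apart from the other Y665H libraries.

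Gene lists from the study's own chromatin and reconstitution experiments were also described. They were chosen by the study on samples of the same series, so they are not independent evidence of a direction. Genes nearest STAT5B binding peaks of stimulated Y665H cells had a median log2 fold change of −0.18 over 311 tested, with 34 lower and 2 higher at an unadjusted p under 0.05. That is 10.9% lower against 3.29% of all genes, and the lower count was 22 without Y665H replicate 2. Of 20 genes assigned to STAT5B-bound enhancers of Y665H cells, 5 were lower and 0 higher (median −0.30), and 3 were lower without Y665H replicate 2. Of 113 genes that carry a STAT5 enhancer and responded to the related Y665F variant in Stat5a/b-null CD4 cells, 33 (29.2%) were lower and 2 higher, with a median of −0.53. Single libraries left out gave 23 to 40 lower members of the last list.

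A further set of genes is named after their values were seen. Ecm1, a member of the STAT5 target list and an extracellular matrix protein that activated T cells express, measured 260, 358, 495 and 204 CPM in WT and 66.6, 91.5 and 81.0 CPM in Y665H, a log2 fold change of −2.05 ± 0.36 (4.14-fold lower, adjusted p = 0.0581 by edgeR and 3.89e-05 by DESeq2). The gene lies on chromosome 3 from 95734147 to 95739569. Each Y665H library lay well below each WT library, and the 3 were close to each other. Itih5, which stabilizes matrix hyaluronan, measured 59.4 to 89.5 CPM in WT and 9.76 to 29.9 CPM in Y665H (−1.77 ± 0.35, adjusted p = 0.097).

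On the higher side, Kcnip2, a subunit of potassium channels encoded on chromosome 19 from 45791839 to 45816061, measured 4.10, 5.25, 9.79 and 7.60 CPM in WT and 56.9, 17.3 and 18.1 CPM in Y665H (2.20 ± 0.39, adjusted p = 0.0581, and 3.89e-05 by DESeq2). Skil, a repressor of TGF-beta signaling, measured 301, 305, 300 and 333 CPM in WT and 654, 451 and 571 CPM in Y665H (0.85 ± 0.21, adjusted p = 0.388). Pcsk1, a protease of prohormones, was at 3.58 to 6.64 CPM in WT and 13.5 to 20.8 CPM in Y665H (1.54 ± 0.33, adjusted p = 0.16). All 3 had each Y665H library above each WT library, and all are named after their values were seen.

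The neutrophil genes were higher as a list: 8 of 16 tested were higher and 0 lower at an unadjusted p under 0.05 (background 1.53% of all genes), with a median of 1.197. Without Y665H replicate 3, 5 were higher. S100a8, a calcium-binding protein of neutrophils, measured 3.77, 1.40, 1.69 and 2.38 CPM in WT and 8.36, 14.5 and 23.8 CPM in Y665H (2.82 ± 0.52, adjusted p = 0.0581), and its partner S100a9 gave 2.44 ± 0.48. Lcn2, lipocalin 2, was at 0.1499 to 0.264 CPM in WT and 1.45 to 1.78 CPM in Y665H, near the level of a few reads. Of 21 macrophage and monocyte markers, 3 were higher and 0 lower, 7 were higher without Y665H replicate 1, and 1 was higher without Y665H replicate 2 or 3. Without Y665H replicate 1, edgeR called 18 genes higher and 1 lower (Gzmb), and the genes called higher included Adgre1, Cybb, Mpeg1, S100a8 and S100a9, which are myeloid genes. Mmp8 measured 3.21 to 4.03 CPM in WT and 0.836, 18.8 and 19.98 CPM in Y665H. Csf1r, the macrophage growth factor receptor, measured 12.9 to 17.3 CPM in WT and 2.79, 37.6 and 42.4 CPM in Y665H.

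The levels in stimulated T cells of Y665F mice, the other substitution at this residue, are set beside these because they came from the same kind of culture and share the WT libraries. Gzmb averaged 106 CPM ± 31.3 (SD, n = 4) in WT, 14.3 ± 10.7 (SD, n = 3) in Y665H and 349 ± 172 (SD, n = 4) in Y665F. Il2ra averaged 119 ± 27.6, 50.3 ± 25.7 and 196 ± 45.4 CPM in the same order, and Il7r 857 ± 136, 1320 ± 245 and 340 ± 119 CPM. Itgae averaged 17.3 ± 5.18, 56.2 ± 30.5 and 10.2 ± 1.41 CPM. In these genes the means of Y665H and Y665F lay on opposite sides of WT, as did those of Il2rb (298, 133 and 419 CPM) and Irf8 (15.6, 5.11 and 45.3 CPM). The Y665F libraries overlapped WT for Il2ra, for Il2rb (183 to 545 against 218 to 457 CPM) and for Irf8 (20.6 to 61.3 against 9.05 to 23.6 CPM). Y665F replicate 3 held only 2851451 reads on genes. The B cell marker Cd74 was at 202 and 163 CPM in Y665F replicates 3 and 4, against 19.2 to 60.6 CPM in WT. The part of depth and cell makeup in the Y665F levels was not tested. The mean of Ecm1 lay below WT in both, with 329 ± 128, 79.7 ± 12.5 and 209 ± 105 CPM. So did the means of Lta (41.7, 18.3 and 39.9 CPM), Ifngr1 (1101, 586 and 888 CPM) and Pim1 (526, 358 and 473 CPM). For each of these genes the Y665F libraries overlapped WT, so a lower level in Y665F is not shown. Those of Lta, at 27.9 to 46.7 CPM, were near the WT range of 32.0 to 55.0 CPM. S100a8 lay above WT in both (2.31, 15.5 and 37.2 CPM). These genes are examples, and an opposite direction across genes was not tested.

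The genotype difference in stimulated T cells was then compared with that in unstimulated spleen, as an interaction term over 4 WT and 5 Y665H spleen libraries and the 7 T cell libraries. The settings differ in tissue, purification and culture at once, which cannot be told apart. Of 21066 genes tested, 20 (0.0949%) had a higher and 24 (0.114%) a lower difference in T cells than in spleen, and in 42 of these 44 the 2 differences had opposite signs. All 24 lower genes had a positive log2 fold change in spleen and a negative one in T cells. Choosing genes by the difference between the settings favors opposite signs, so these counts do not show a reversal. The spleen side ranged from near 0, as for Kirrel (0.04 ± 0.15, adjusted p = 0.946), to supported changes, as for Il7r below.

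Il7r was among the called genes. In spleen its level was 139 to 201 CPM in WT and 76.4 to 106 CPM in Y665H, a log2 fold change of −1.03 ± 0.14 (adjusted p = 0.00286), against 0.66 in T cells in this fit, and the interaction was 1.69 ± 0.21 (adjusted p = 0.00341). T cell genes were lower in Y665H spleens as well, with log2 fold changes of −0.91 for Cd8a (adjusted p = 0.00286) and −1.02 for Cd8b1 (adjusted p = 0.00603), and their part in the spleen value of Il7r was not tested. Itgae also had a positive interaction, of 2.11 ± 0.37 (adjusted p = 0.034), but no supported change in spleen. Its spleen levels were 17.9 to 19.3 CPM in WT and 13.5 to 16.2 CPM in Y665H (−0.32 ± 0.24, adjusted p = 0.581). Among other named genes with a higher difference in T cells, Rab7b (2.29 ± 0.46), Thbd (2.53 ± 0.49) and Slc16a9 (2.93 ± 0.54) were at or below 6.02 CPM in each T cell library compared. Their T cell side therefore rests on few reads. That does not hold for Skil, also called higher and given below, which was at 300 to 333 CPM in WT and 451 to 654 CPM in Y665H T cells. Gm15446 is described below as well.

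Among the 24 genes with a lower difference in T cells, the 5 furthest from 0 at a mean of at least 5 CPM were Hist1h2be, Odc1, Mcm10, Uhrf1 and Foxm1, from −2.84 to −2.59 with adjusted p from 0.0277 to 0.0486. Most of these act in proliferating cells: Mcm10 opens replication origins, Foxm1 is a transcription factor of mitosis and Hist1h2be encodes a histone. Foxm1, for example, was at 12.5 to 23.1 CPM in WT spleens and 26.0 to 58.9 CPM in Y665H spleens (1.40 ± 0.25), but at 3.86 to 6.83 CPM in WT and 1.85 to 3.39 CPM in Y665H T cells. In Y665H T cell replicates 1, 2 and 3, Foxm1 had 11, 4 and 28 reads and Mcm10 3, 3 and 34. The T cell side of these 2 genes therefore also rests on few reads. Odc1 was at 123.3 to 206 CPM in WT and 154 to 512 CPM in Y665H spleens. Over the 48 cell cycle genes the median interaction was −1.57, and over the 48 STAT5 targets −0.63, against −0.05 over all genes, although only 1 of the 48 cell cycle genes was called. The median was −2.52 over replication-dependent histone genes and −1.41 over 10 erythroid markers, whose part in the difference was not tested. Ecm1 was lower in T cells relative to spleen (−2.32 ± 0.33, adjusted p = 0.0125), and Skil higher (1.36 ± 0.20, adjusted p = 0.0125).

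This count moved strongly with single libraries. Without WT replicate 1 it was 583 genes and without Y665H replicate 1 236, whereas without WT replicates 2, 3 or 4 it was 6, 4 and 19 and without Y665H replicate 2 it was 14. Il7r, Ecm1 and Skil kept their call in each of these 7 fits. Itgae kept it in 5, Uhrf1 in 4, Foxm1 and Odc1 in 3 and Mcm10 and Hist1h2be in 2, with one sign throughout. Gm15446, a zinc finger gene model, had the strongest named interaction (7.74 ± 1.35) from an on and off pattern that crossed the labels: its CPM in T cells was 8.94, 0.0, 9.74 and 10.2 in WT and 0.279, 7.23 and 7.46 in Y665H, whereas it lay at 8.08 to 12.5 in WT spleens and at most 0.0837 in Y665H spleens.

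**Figure D4:**
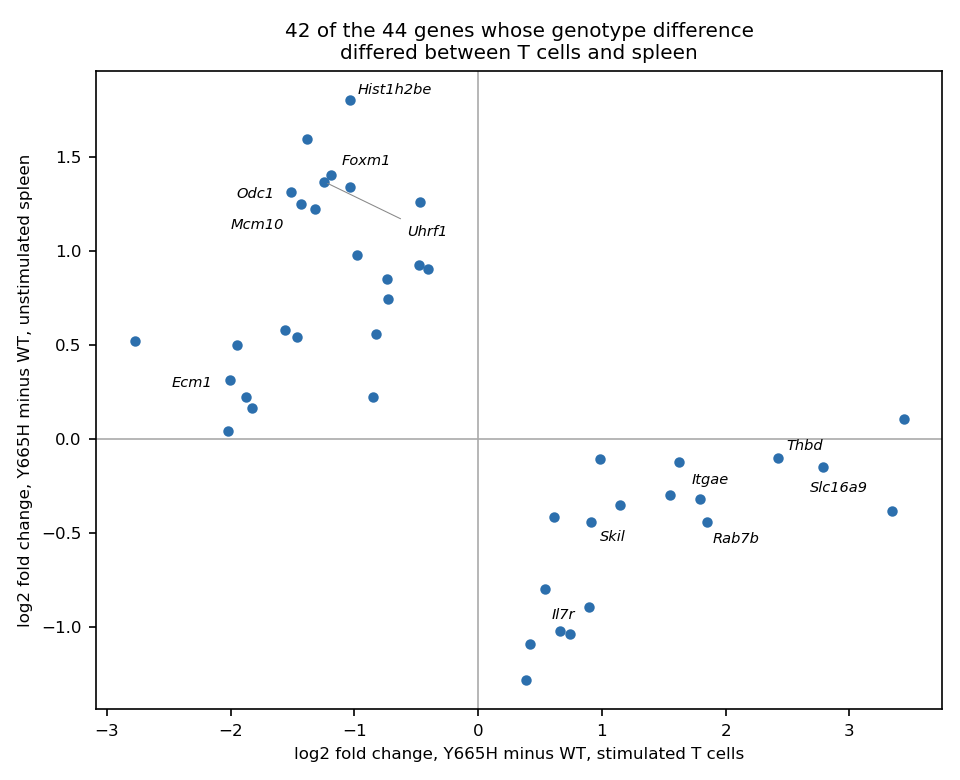
Log2 fold change of Y665H minus WT in stimulated T cells (x axis) and in unstimulated spleen (y axis) for 42 of the 44 genes called for the difference between the 2 settings. Points fill the upper left and lower right quadrants, with proliferation genes at the upper left and Il7r and Itgae at the lower right. The genes were chosen by the difference between the 2 axes, which favors these quadrants. Gm15446 and Afm, whose log2 fold change in spleen lay below −3, are not drawn.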

How the data were processed

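RNA from cultured splenic T cells was sequenced by the authors, and each library was deposited as raw read counts per gene. According to the methods and the submitters' processing notes, reads were trimmed with Trimmomatic 0.36, aligned with STAR to mm10 and counted with HTSeq 0.9.1, with FastQC 0.11.9, SAMtools 1.9 and Picard 2.9.2 also named. The counts were used as deposited, and the 5 categories of reads without a gene entered neither library sizes nor tests (their share is given beside the depth).

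The analysis was fixed for 15 splenic T cell libraries, but Y665H replicate 4 held the summed counts of replicates 1 and 2 and was left out, so 14 libraries were fitted (4 WT and 3 Y665H, with 4 stimulated and 3 unstimulated Y665F libraries that add to the estimate of spread). Genes with at least 10 reads over the fitted libraries were kept. TMM factors and the quasi-likelihood test of edgeR 4.0.16 (R 4.3.3) were used, with Benjamini-Hochberg adjustment over all genes tested. Calls needed an adjusted p under 0.05 with a fitted log2 difference above 1 or below −1, and SE is the size of the log2 fold change over the square root of F. The interaction with spleen was fitted on 16 libraries in the same way. Library-level shares were compared by an exact two-sided permutation test. Nothing in the labels says that libraries came from separate animals, so p-values measure the spread between these libraries only.

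Genes were named by rules: those the study discusses for STAT5 in T cells, called genes at a mean of at least 5 CPM, the called and up to 4 most abundant members of each list, and 5 called interaction genes per direction at that mean. Genes named outside the rules are marked in the text. Some genes that the rules name are not reported here. The members, gene lists and rules were chosen with earlier results of these data known, and 3 of the 35 lists come from the study's own supplement. Lists are described by counts and medians, with no set test.

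Alternatives were size factors by relative log expression, DESeq2 1.42.0, limma 3.58.1 with voom weights, other filters, fewer libraries in the fit, the replicate number as a block, a factor from residuals, thinning to the shallowest library, and leaving out each library in turn. Leaving out Y665H replicate 4 was decided after seeing the data, and the planned set of libraries is kept as an alternative, beside replicate 4 in place of replicates 1 and 2, also chosen then. Counts were also simulated for 22012 genes, with changes planted only in genes averaging 5 CPM or more. The test recovered 77 of 100 genes changed by 1.5 on the log2 scale and 100 of 100 changed by 3, with 11 false calls. These counts were drawn gene by gene, without the differences in cell makeup seen between the real libraries. They check the procedure and do not measure its power in the real libraries. The numbers shared by 3 pairs of WT and Y665H libraries did not pair them, since 0 of 3 pairs had a correlation of deviations over 0.1.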

Additional observations from a re-analysis of the deposited data

Results flagged for a closer look

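Among 96 groups of 4 or 5 libraries tested for a sample far from the others, 10 (10.4%) held one, where chance gives about 1 in 20. In WT T cells, Socs1 was lowest in replicate 4 (9.78 CPM, against 21.1 to 23.3 in the others), Gm15446 was listed at 0.0 CPM in replicate 2 (8.94 to 10.2), and Pcsk1 was lowest in replicate 3 (3.58 CPM, against 6.34 to 6.64). Rab7b was highest in replicate 4 (1.255 CPM, against 0.749 to 0.820), Skil was highest in replicate 4 (333 CPM, against 299.5 to 305), and Lyz2 was highest in replicate 2 (112 CPM, against 97.9 to 99.8). Gzma and the summed natural killer cell markers were both highest in WT replicate 1, Gzma at 193 CPM (52.1 to 73.4 in the others) and the sum at 593 CPM (224 to 264). In Y665H spleens, Il7r was highest in replicate 1 (106 CPM, against 76.4 to 82.5) and Ecm1 in replicate 2 (16.96 CPM, against 10.8 to 12.4).

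A test of the difference between 2 settings, stimulated T cells and unstimulated spleen, set apart 13 of the genes named. The log2 difference was lower in T cells for Hist1h2be (−2.84), Odc1 (−2.83), Mcm10 (−2.68), Uhrf1 (−2.61), Foxm1 (−2.59) and Ecm1 (−2.32). It was higher in T cells for Gm15446 (7.74), Slc16a9 (2.93), Thbd (2.53), Rab7b (2.29), Itgae (2.11), Il7r (1.69) and Skil (1.36). The part of cell makeup in these differences was not tested.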

How the results depend on the processing

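No gene was called by edgeR, limma voom, with filterByExpr, in the 7 compared libraries alone, after thinning, or with Y665H replicate 4 in place of replicates 1 and 2, and these settings had 800 to 1073 genes at an unadjusted p under 0.05. More genes were called by other settings, with 3 under relative log expression, 28 by DESeq2, 8 without a filter, 14 with a residual factor and, with Y665H replicate 4 kept, 16 by edgeR and 90 by DESeq2. Leaving out single libraries gave 0 to 19, with the highest number without Y665H replicate 1. With the replicate number as a block the count was 31, although the numbers did not pair the libraries and 0 of 6 libraries were closest to their own number. The count for the difference from spleen was 44 and became 2 with the replicate block, 284 with replicate 4 kept, and 4 to 583 without single libraries, lowest without WT replicate 3 and highest without WT replicate 1. The cause of these shifts was not tested.

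Of 1292 values for 68 genes, 1182 kept their direction and call, 91 gained a call and 19, in 6 genes, changed sign. The log2 fold change of Stat5b was −0.0389 without a filter, −0.030 with the block, and −0.14 to 0.11 without single libraries. Il18r1 was −0.43 to 0.0483 without single libraries. Bcl2 was 0.0054 under relative log expression and by DESeq2 and 0.0039 after thinning. Gm15446 was 0.89 by voom, 0.15 with the block and −1.10 to 0.0333 without single libraries. The log2 fold change of Foxp3 was 0.0367 under relative log expression, 0.0299 by DESeq2, 0.0023 with filterByExpr, 0.35 after thinning, 0.0835 by DESeq2 with replicate 4 kept and −0.27 to 0.14 without single libraries. Lyz2 was −0.39 by voom. Of 630 values for list medians, 559 moved by less than the spread between replicates. Y665H replicates 1 and 2 are shallow, so small differences in genes of a few CPM may go undetected.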
